A study of Mus musculus with 7 samples.

Results

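Retinoic acid signalling was followed through 8 genes of its metabolism and receptors, of 13587 genes listed in at least 1 of 6 deposited expression tables, in B16 mouse melanoma cells after a short exposure to interferon gamma (IFNγ) or to medium alone. The members were Dhrs3, Cyp26b1 and Aldh1a1, which encode enzymes, and Rarb, Rara, Rarg, Rxra and Rxrb, which encode receptors. They were picked as a pathway because Dhrs3, Rarb and Cyp26b1 differed early between mock cells and the starting cells. The levels of those 3 genes at 23.5 h in mock and at T0 are therefore a description, and no test is given for any contrast that uses the mock libraries of 23.5 h for them. The cells were a clonal, stable B16 line of C57Bl/6 origin, passaged fewer than 5 times, so the data describe a single clone in culture. Cells of the IFNγ groups were detached, held for 5 h with 10 nM recombinant mouse IFNγ, washed 3 times and seeded at 35000 per well. Cells of the mock groups went through the same steps with medium in place of the cytokine. PolyA RNA was sequenced at labelled times of 23.5, 48 and 91 h in both arms, and at a labelled time of 0 h (T0). From when the hours were counted, and whether T0 cells were pulsed, is not stated in the labels.

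Retinoic acid is made from vitamin A. Retinol is oxidised to retinal by retinol dehydrogenases, and retinal is oxidised to retinoic acid by the aldehyde dehydrogenases of the Aldh1a family. Dhrs3 works against that flow by reducing retinal back to retinol, and the cytochrome P450 enzymes of the Cyp26 family degrade retinoic acid itself. Retinoic acid binds the receptors RARα, RARβ and RARγ, which pair with a retinoid X receptor (RXR) on direct repeats of a short half-site in DNA. Rarb, Dhrs3 and Cyp26 genes are known to be induced by retinoic acid in many cell types, and retinoic acid is known to slow growth and promote pigment cell differentiation in melanoma lines.

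The Rarb promoter is the classical example of such a receptor site, so the 250 bases before the RefSeq start sites of Rarb and Dhrs3 are shown, 5′ to 3′ on the gene's strand. Capitals mark both half-sites of a direct repeat with a spacer of 5 bases. The Rarb stretch is chr14:16575477-16575726 (minus strand) and the Dhrs3 stretch chr4:144892577-144892826 (plus strand), both in GRCm38.p6. The Rarb stretch precedes a start site inside the span of the gene given further on, whereas the Dhrs3 stretch ends just before the first base of its gene.
Rarb: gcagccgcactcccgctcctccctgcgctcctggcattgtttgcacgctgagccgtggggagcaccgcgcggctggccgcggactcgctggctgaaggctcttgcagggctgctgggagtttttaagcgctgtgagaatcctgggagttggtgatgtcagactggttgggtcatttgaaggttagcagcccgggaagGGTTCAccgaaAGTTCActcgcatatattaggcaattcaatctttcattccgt
Dhrs3: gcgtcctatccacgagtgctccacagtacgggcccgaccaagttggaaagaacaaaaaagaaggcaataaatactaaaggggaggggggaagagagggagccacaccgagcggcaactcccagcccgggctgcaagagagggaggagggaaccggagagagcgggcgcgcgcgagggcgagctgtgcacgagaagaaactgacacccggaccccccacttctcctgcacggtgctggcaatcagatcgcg
Half-sites were searched as NGNTCA, with A or G before the G and G or T after it, on both strands of each RefSeq window of 300 bases, from 250 before to 50 after the start site. All 8 members matched a window, with 17 windows in all. A direct repeat with a spacer of 5 bases occurred in 1 of those 17, that of Rarb, from 53 to 37 bases before the start site. Of all 32851 windows, 32 (0.0974%) held such a repeat. Repeats with a spacer of 1 or 2 bases were found in none of the members' windows, and in 0.222% and 0.268% of all windows. No half-site was found in the windows of Dhrs3 or Cyp26b1, whereas 43.7% of all windows held at least 1.

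The deposited values are means per group, called normalised reads here, and each mean resolved into whole reads of 2 libraries, so that 14 libraries are used. Depth in recovered genes lay between 12894823 and 24459426 reads per library. The libraries of a group differed most in IFNγ at 48 h, where the SD of their log2 ratio over well expressed genes (1000 normalised reads or more) was 0.419, against 0.067 to 0.150 in the other groups. In IFNγ at 48 h, 122 of 4894 such genes differed 2-fold or more between the libraries, and 0 did in any other group. Psmb8, an interferon-inducible proteasome gene, stood at 631 and 2905 in the IFNγ libraries of 48 h, against 56.4 and 37.2 in mock. All 8 melanocytic markers were listed, and T cell, myeloid, B cell and keratinocyte markers were listed in 1 of 6, 2 of 5, 0 of 3 and 0 of 4 cases. Of fibroblast markers 4 of 6 were listed (262 to 489.8 normalised reads in sum), and of endothelial markers 1 of 4 (Vwf, 166 to 933).

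Dhrs3, the retinal reductase, lies on chromosome 4 from 144892827 to 144928209 (plus strand, GRCm38). It stood at 266 and 308 normalised reads in the T0 libraries. IFNγ-pulsed cells held 718 and 757 at 23.5 h, then 1337 and 2502 at 48 h, then 3562 and 3086 at 91 h. Mock cells held 1258 and 1022, then 1719 and 1696, then 2519 and 2345 at the same times. Every later library lay above both T0 libraries, and within each arm the means climbed at each time. Relative to T0 the means were 2.56, 6.67 and 11.6 times as high in IFNγ at 23.5, 48 and 91 h, and 3.96, 5.94 and 8.45 times as high in mock. All ratios to T0 are of means with 1 added. The order of the arms turned over between the first and the last time: the IFNγ libraries lay below the mock libraries at 23.5 h and above them at 91 h.

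Rarb, the receptor gene whose promoter holds the repeat shown above, lies on chromosome 14 from 16430839 to 16819156 (minus strand). It was scarce in T0, at 33.7 and 31.7 normalised reads. It reached 107 and 116 in IFNγ at 23.5 h, 172 and 243 at 48 h, then 208 and 204 at 91 h. Mock cells had 90.0 and 81.4, then 159.9 and 157, then 146 and 160.1. The IFNγ libraries lay above the mock libraries at all 3 times, and all lay above T0. Relative to T0 the means were 3.33, 6.20 and 6.15 times as high in IFNγ at 23.5, 48 and 91 h, and 2.57, 4.73 and 4.58 times as high in mock. Rarb's reads carry an uncertainty: in GENCODE, 1793 of its 5265 exon bases (34.1%) are shared with Top2b, a topoisomerase gene on the opposite strand, and 227 (4.31%) with the antisense gene Gm48162. The strand setting of the counting is not given, so reads of Rarb and of its antisense partners cannot be told apart there. Top2b averaged 4314 normalised reads in T0. It averaged 4000.3, 4199 and 3708 in IFNγ at 23.5, 48 and 91 h, and 4419, 4835 and 3902 in mock.

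Cyp26b1, an enzyme that clears retinoic acid, moved the other way. It lies on chromosome 6 from 84571414 to 84593908 (minus strand) and stood at 132 and 141 normalised reads in T0. With IFNγ it stood at 22.5 and 27.1 at 23.5 h, 18.7 and 12.9 at 48 h, then 48.5 and 34.4 at 91 h. With mock it stood at 45.5 and 46.1, 62.4 and 65.6, and 42.6 and 49.2. All later libraries lay below T0, the IFNγ libraries lay below the mock libraries at 23.5 and 48 h, and the arms overlapped at 91 h. The T0 mean was 5.33, 8.18 and 3.24 times the IFNγ mean at 23.5, 48 and 91 h, and 2.94, 2.11 and 2.93 times the mock mean. The lowest of these values rests on few reads, with 25 and 13 reads behind the IFNγ libraries of 48 h.

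Dhrs3, Rarb and Cyp26b1 were the members that differed at least 2-fold from T0 with libraries apart and 20 normalised reads or more in a compared group, 3 of the 8 listed in IFNγ at 23.5 and 48 h and 3 of the 7 listed in each other group. Of all genes compared, the same rule in either direction took 2.89%, 12.0% and 20.8% in IFNγ at 23.5, 48 and 91 h. It took 0.457%, 11.4% and 19.8% in mock. Since the 3 genes were chosen on the first mock contrast and all contrasts share the T0 libraries, nothing is read from these counts.

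**Figure D1:**
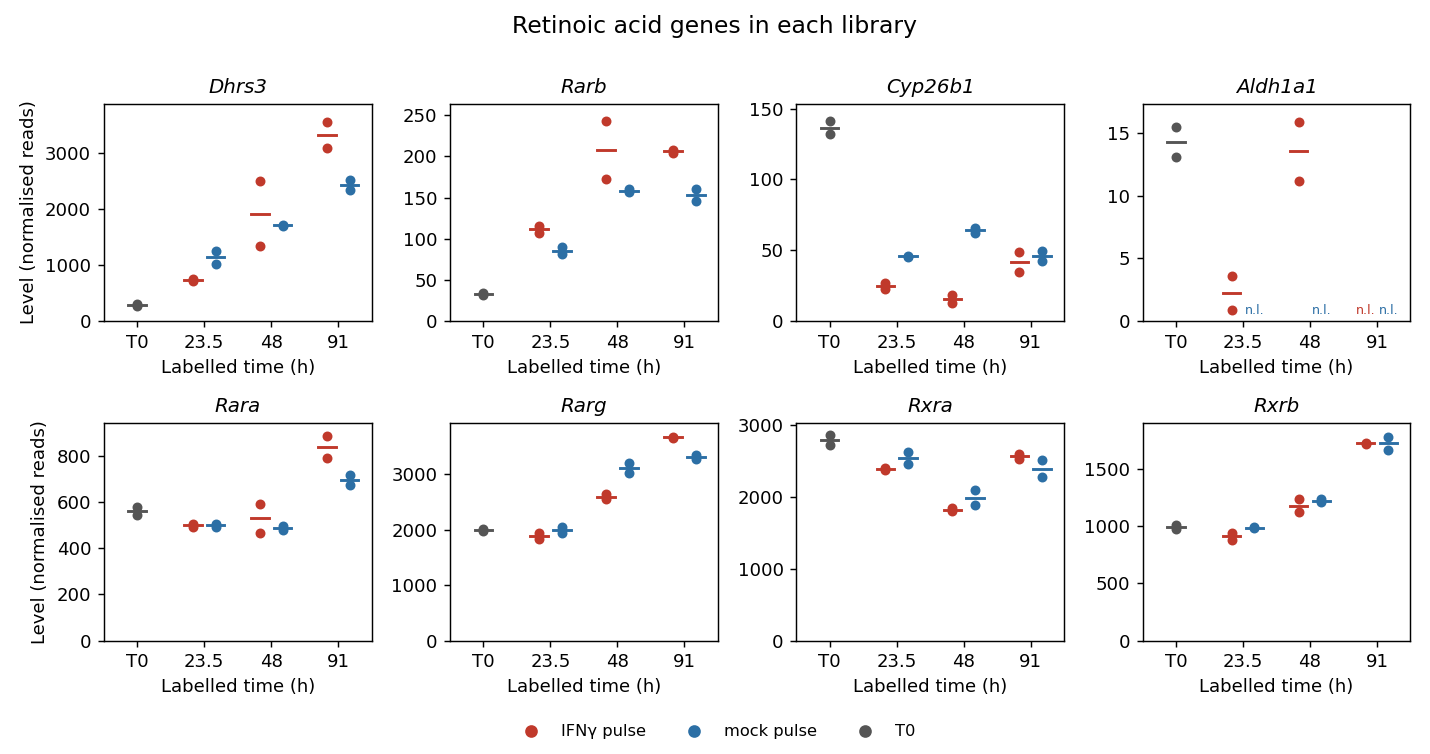
Level of each member in every library (points; y axis, normalised reads, from 0) with the mean of 2 libraries (bars), at T0 and at 23.5, 48 and 91 h, evenly spaced on the x axis, with IFNγ left of mock; n.l. means not listed. Dhrs3 climbs to 3562 and 3086 in IFNγ at 91 h, against 2519 and 2345 in mock, and Cyp26b1 falls short of its T0 levels of 132 and 141 in every later library.

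Aldh1a1, which makes retinoic acid from retinal, was at the edge of detection and was listed only in the IFNγ tables of 23.5 and 48 h. It stood at 15.5 and 13.1 normalised reads in T0, from 17 and 12 reads. In IFNγ at 23.5 h it stood at 3.60 and 0.903, from 4 and 1 reads, and at 48 h at 11.2 and 15.9, from 15 and 16 reads. Its level stayed under the minimum of 20 normalised reads set for a test in all of these groups, although the IFNγ libraries of 23.5 h lay below both T0 libraries. Its exons lie on chromosome 19 between 20492715 and 20643465.

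The receptor genes other than Rarb were well expressed, with smaller differences. Rarg, on chromosome 15 from 102234938 to 102257517, encodes the RAR of skin and of many epithelial and mesenchymal cells. It stood at 1972 and 2023 normalised reads in T0. IFNγ libraries had 1829 and 1943 at 23.5 h, 2639 and 2559 at 48 h, then 3679 and 3659.8 at 91 h. Mock libraries had 2051 and 1934, 3197 and 3034, and 3349 and 3280.1. Both arms stayed near T0 at 23.5 h and lay above it later, with IFNγ below mock at 48 h and above mock at 91 h.

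Rara, on chromosome 11 from 98927818 to 98974942, encodes the most widely expressed RAR. It stood at 544 and 579 normalised reads in T0. After the IFNγ pulse it stood at 507 and 491 at 23.5 h, 468 and 592 at 48 h, then 884 and 791 at 91 h. After the mock pulse it stood at 494 and 507, 480.5 and 495, and 717 and 674. The libraries of 91 h lay above both T0 libraries in both arms. At 48 h, 1 IFNγ library (592) did so too, and at 23.5 h no library did.

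Rxra, on chromosome 2 from 27676440 to 27762957, encodes the main RXR partner in skin and liver. It stood at 2851 and 2725 normalised reads in T0. Its levels in IFNγ were 2366 and 2399 at 23.5 h, 1841 and 1800.4 at 48 h, then 2595 and 2523 at 91 h. Its levels in mock were 2456 and 2623, 1882 and 2086, and 2504 and 2277. Its lowest levels in both arms were those of 48 h.

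Rxrb, on chromosome 17 from 34031812 to 34038399, encodes a broadly expressed RXR. It stood at 972 and 1006 normalised reads in T0. In IFNγ it had 939 and 881 at 23.5 h, 1235 and 1122 at 48 h, then 1715 and 1728 at 91 h. In mock it had 979.6 and 991, 1235 and 1210.2, and 1779.8 and 1666. The arms followed each other closely, and the libraries of 91 h stood at 1.74 times T0 in both by their means. In the authors' deposited table, the adjusted p against T0 at 91 h was 6.3e-21 in IFNγ and 1.5e-20 in mock for Rxrb. The corresponding values for Rarg in the authors' deposited table were 1.8e-40 in IFNγ and 1.1e-26 in mock. For Rara they were 2.4e-07 in IFNγ and 0.0129 in mock, and for Rxra 0.0985 in IFNγ and 0.00715 in mock. The authors' values at 48 h were 6.2e-10 in IFNγ and 5.3e-09 in mock for Rxra, and 4.1e-05 and 7.3e-17 for Rarg. For Rara they were 0.778 and 0.249, and for Rxrb 0.0569 and 0.00554. In IFNγ at 23.5 h they were 0.0012 for Rxra and 0.422 to 0.529 for Rara, Rarg and Rxrb. The share of all genes passing in these contrasts is not given here.

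On a scale per kb of exon, which allows levels of different genes to be compared, Rarg made up most of the RAR transcripts. Its share of the summed RAR level was 77.7% in T0, 76.6%, 79.1% and 78.8% in IFNγ at 23.5, 48 and 91 h, and 78.1%, 83.8% and 80.5% in mock. Rara took 21.3% in T0, 19.8%, 15.8% and 17.6% in IFNγ, and 19.1%, 12.8% and 16.5% in mock. Rarb stayed a minor RAR in spite of its fold over T0, with 1.03% in T0, 3.66%, 5.12% and 3.59% in IFNγ, and 2.72%, 3.44% and 3.01% in mock. The order Rarg, Rara, Rarb held in every library, with no overlap between neighbours. The uncertainty of Rarb's reads over exon bases shared with Top2b also applies to its level per kb and its share.

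Between the RXR genes the balance shifted in both arms. Rxra held 67.2% of the summed Rxra and Rxrb level per kb in T0. Its share was 65.6%, 52.9% and 52.0% in IFNγ at 23.5, 48 and 91 h, and 65.2%, 54.1% and 50.2% in mock. At 91 h the per-kb levels of Rxra and Rxrb were 469 and 433 in IFNγ, and 438 and 434 in mock. The 2 mock libraries at 91 h overlapped between these genes, at 458 and 417 for Rxra and 448 and 419 for Rxrb. Those of IFNγ did not, at 475 and 462 for Rxra and 432 and 435 for Rxrb. Neither gene was called between the arms at 91 h (limma adjusted p = 0.25 for Rxra and 0.996 for Rxrb). A difference in their balance between the arms was not tested.

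**Figure D2:**
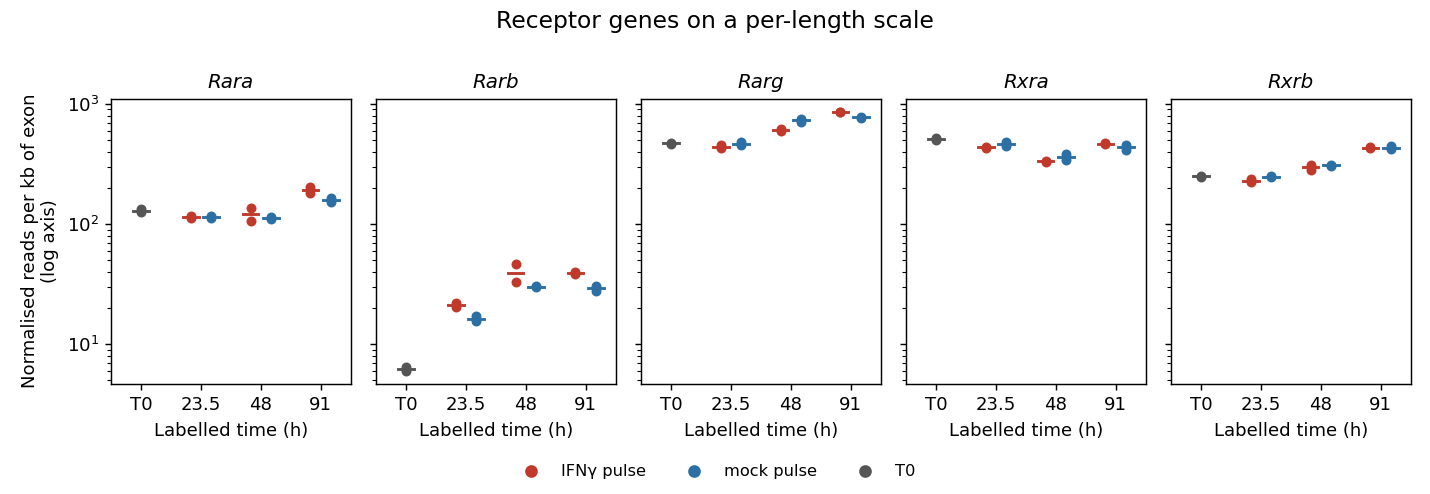
Normalised reads per kb of exon (y axis, log scale) of the receptor genes in every library (points), with group means (bars), at T0 and at 23.5, 48 and 91 h, with IFNγ left of mock. Rarb lies between 6.01 and 46.2 in all libraries, under the lowest Rara value of 107, while Rxra and Rxrb approach each other by 91 h.

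The effect of the pulse was read from IFNγ against mock at the same time, as a difference of mean log2(normalised reads + 1) with a limma test over all genes that reached 20 normalised reads in either arm (2 libraries per group). At 91 h, 4 of 7 members were called higher in IFNγ cells and none lower, where 8.75% of 12435 genes were called higher and 16.3% in either direction. The libraries of the arms were apart for 5 of the 7, and for 57.7% of all genes. Dhrs3 averaged 3324 ± 337 normalised reads in IFNγ and 2432 ± 124 in mock (SD, n = 2 libraries each), a log2 difference of 0.45 (SE 0.06, limma adjusted p = 2.0e-04). Rarb averaged 206 ± 3.14 in IFNγ and 153 ± 9.71 in mock, a log2 difference of 0.43 (SE 0.13, limma adjusted p = 0.0317). These are rises of 1.36-fold for Dhrs3 and 1.34-fold for Rarb. Rara averaged 838 ± 65.8 in IFNγ and 696 ± 30.0 in mock, with a log2 difference of 0.27 (SE 0.08, limma adjusted p = 0.0238). Rarg averaged 3669 ± 13.7 in IFNγ and 3314 ± 48.5 in mock, with a log2 difference of 0.15 (SE 0.05, limma adjusted p = 0.0456). All 3 RAR genes were thus called higher, by 1.11-fold to 1.34-fold, while the RXR genes and Cyp26b1 were not called. Rxra differed by 0.10 (SE 0.06, limma adjusted p = 0.25), Rxrb by -0.001 (SE 0.06, limma adjusted p = 0.996) and Cyp26b1 by -0.16 (SE 0.26, limma adjusted p = 0.724). Dhrs3 was called with each of the 4 libraries left out, Rarb was lost without IFNγ library 1 (adjusted p = 0.177), IFNγ library 2 (0.12) or mock library 1 (0.131), and Rara without IFNγ library 1 (0.251) or mock library 2 (0.083). Rarg was lost with any library left out (0.0731 to 0.18), with no filter on low values (0.0507) and with libraries scaled to equal totals (0.0676). All 4 were lost in limma without a variance trend and in a fit over all 14 libraries. The latter takes in the wide spread of IFNγ at 48 h, which is not in this contrast. In a fit without those libraries, chosen after the data were seen, Rarg was lost (limma adjusted p = 0.0668) and Dhrs3, Rarb and Rara stayed called.

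At 48 h none of the 7 members passed, nor did any of 12652 genes (0%) in limma, with 847 (6.69%) at an unadjusted p under 0.05. The libraries of the arms were apart for 4 members, Cyp26b1, Rarb, Rarg and Rxra, and for 39.1% of all genes. Cyp26b1 showed the widest gap of any member between the arms at any time: 15.8 ± 4.09 normalised reads in IFNγ and 64.0 ± 2.26 in mock (SD, n = 2 libraries each). The log2 difference was -1.97 (SE 0.29, limma adjusted p = 0.285), with an interval of 2 SE from -2.56 to -1.39. The fit over all 14 libraries averages the wide spread of IFNγ at 48 h with tighter groups, so nothing is read from its passes here. In it, the Cyp26b1 difference had an adjusted p of 0.00119. It was -2.22 without IFNγ library 1 (limma adjusted p = 1.9e-05) and -1.72 without IFNγ library 2 (9.0e-04), with the lone library then assumed to vary like the mock libraries, so that the spread at 48 h in IFNγ no longer enters those tests. Between the IFNγ libraries of 48 h, library 2, which held more Psmb8, also held more Dhrs3 (2502 against 1337 in library 1), Rarb (243 against 172) and Rara (592 against 468). It held less Cyp26b1 (12.9 against 18.7), Rarg (2559 against 2639), Rxra (1800.4 against 1841) and Rxrb (1122 against 1235). Whether this spread and the response to the pulse are linked was not tested. The difference of Dhrs3 was 0.10 (SE 0.30, limma adjusted p = 0.953), and it became 0.55 without IFNγ library 1 (0.00142) and -0.35 without IFNγ library 2 (0.12). Rarb differed by 0.37 (SE 0.22, limma adjusted p = 0.803), or by 0.62 without IFNγ library 1 (0.0141), again with a lone library. Rarg differed by -0.26 (SE 0.11, limma adjusted p = 0.745, or 0.0305 over all 14 libraries), and Rara, Rxra and Rxrb by 0.11, -0.12 and -0.05.

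At 23.5 h the log2 differences of the 3 genes chosen on the mock libraries of that time are given without a test. Dhrs3 averaged 737 ± 27.5 normalised reads in IFNγ and 1139.8 ± 167 in mock, a log2 difference of -0.62. Rarb averaged 111 ± 6.05 in IFNγ and 85.7 ± 6.10 in mock, a log2 difference of 0.37. Cyp26b1 averaged 24.8 ± 3.25 in IFNγ and 45.8 ± 0.427 in mock, a log2 difference of -0.87. For all 3 genes the libraries of the arms did not overlap, in a comparison where 56.9% of genes had libraries apart. Nothing is read from this, since the mock libraries of 23.5 h were used to choose the genes. None of the 4 other members tested passed, where 14.6% of 12452 genes did. Rara differed by -0.003, Rarg by -0.08, Rxra by -0.09 and Rxrb by -0.12 (SE 0.05 to 0.07, limma adjusted p = 0.984, 0.349, 0.242 and 0.215). Their intervals of 2 SE reached no further than -0.23 and 0.13.

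**Figure D3:**
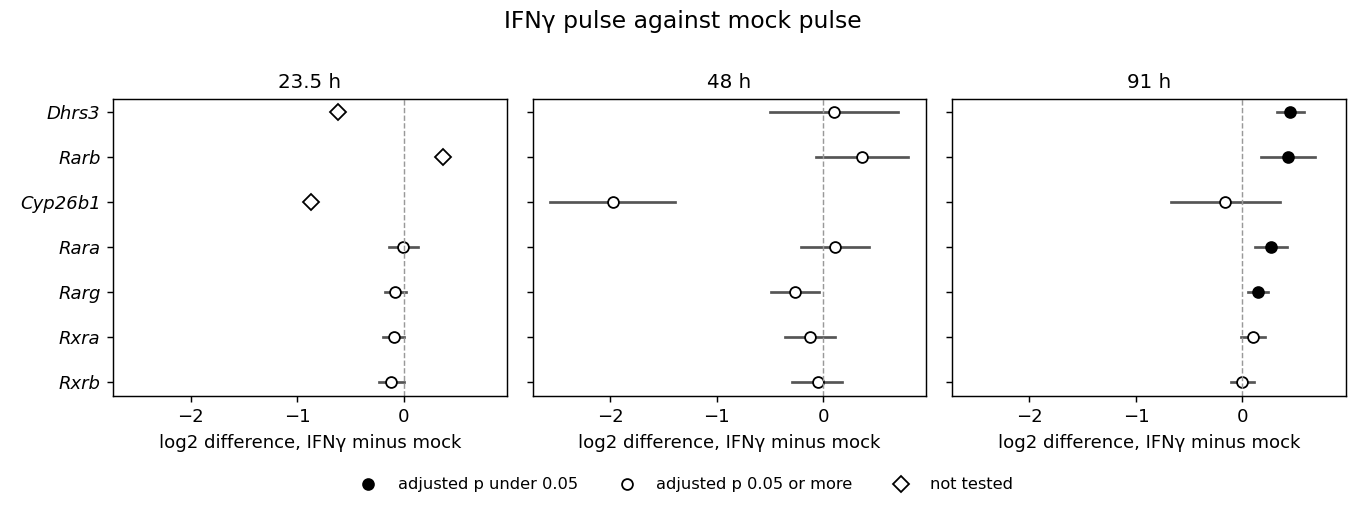
Log2 difference of IFNγ minus mock (x axis, same scale in each panel) for 7 members at 23.5, 48 and 91 h; lines span 2 SE on either side, filled circles passed the limma test, open circles did not, and diamonds were not tested. Dhrs3 lies at -0.62 at 23.5 h and at 0.45 at 91 h, and Cyp26b1 lies at -1.97 at 48 h and -0.16 at 91 h.

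The change of the pulse effect between 48 and 91 h was tested as an interaction over 8 libraries, and 0 of 12608 genes (0%) passed in limma, with 881 (6.99%) at an unadjusted p under 0.05. Cyp26b1 had an interaction of 1.81 (SE 0.39, limma adjusted p = 0.368), from a difference of -0.16 at 91 h and of -1.97 at 48 h. It had an adjusted p of 0.0397 in the fit over all 14 libraries. That fit averages the wide spread of IFNγ at 48 h with tighter groups, so nothing is read from the pass. Rarg had an interaction of 0.41 (SE 0.10, limma adjusted p = 0.474), and Dhrs3 had 0.35 (SE 0.35, limma adjusted p = 0.919). Without library 1 or library 2 of IFNγ at 48 h the sizes were 2.06 and 1.56 for Cyp26b1, 0.43 and 0.39 for Rarg, and -0.10 and 0.80 for Dhrs3. All of these but the -0.10 then passed, with the spread taken from the other 3 groups alone, so nothing is read from those passes. The other members had interactions of 0.05 to 0.22.

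The mock arm, where the cells met no cytokine, was compared between successive times. Between 48 h and 23.5 h, Rarg was 1.56-fold higher at the later time (log2 difference 0.64, SE 0.07, limma adjusted p = 3.8e-05) and Rxrb 1.24-fold higher (0.31, SE 0.07, limma adjusted p = 0.00457). Rxra was lower at 48 h, by -0.36 (SE 0.08, limma adjusted p = 0.00277), and Rara differed by -0.04 (SE 0.09, limma adjusted p = 0.746). Thus 3 of 4 tested members passed, where 56.9% of 12514 genes did. Rxrb was not called without mock library 1 of 23.5 h (adjusted p = 0.0518). Dhrs3, Rarb and Cyp26b1 differed by 0.59, 0.88 and 0.47 between these times, given without a test.

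Between 91 h and 48 h in mock, 4 of 7 members passed, all higher at 91 h, where 56.5% of 12566 genes passed and 26.6% were higher. Dhrs3 rose by 0.51 (SE 0.07, limma adjusted p = 1.2e-04), Rara by 0.51 (SE 0.09, limma adjusted p = 6.3e-04), Rxrb by 0.49 (SE 0.07, limma adjusted p = 2.0e-04) and Rxra by 0.27 (SE 0.08, limma adjusted p = 0.0134). The call of Rxra was lost without mock library 1 of 91 h (0.20, adjusted p = 0.185) and without a variance trend (0.0765), and that of Dhrs3 in the fit over all 14 libraries (0.074). That fit takes in the wide spread of IFNγ at 48 h, which is not in this contrast. Cyp26b1 differed by -0.47 (SE 0.21, limma adjusted p = 0.0814, or 0.0185 without a variance trend), Rarb by -0.05 (SE 0.14, limma adjusted p = 0.791) and Rarg by 0.09 (SE 0.07, limma adjusted p = 0.267).

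In the IFNγ arm both steps rest on the libraries of 48 h, which differed most from each other. Between 48 h and 23.5 h none of 7 members passed, where 2.79% of 12582 genes did. Dhrs3 differed by 1.31 (SE 0.31, limma adjusted p = 0.0746), Rarb by 0.87 (SE 0.22, limma adjusted p = 0.0796), Rarg by 0.46 (SE 0.09, limma adjusted p = 0.0602), Rxrb by 0.37 (SE 0.11, limma adjusted p = 0.0981) and Rxra by -0.39 (SE 0.09, limma adjusted p = 0.0702). Those 5 differences passed in the fit over all 14 libraries, which averages the wide spread at 48 h with that of tighter groups. They also passed with 1 IFNγ library of 48 h left out, but the other is then a lone library assumed to vary like those of 23.5 h, so the wide spread at 48 h no longer enters the test and nothing is read from these passes. For Dhrs3 the size depended on the library, with 1.76 without library 1 and 0.86 without library 2. Rara differed by 0.08 and Cyp26b1 by -0.63 (SE 0.32, limma adjusted p = 0.232, or 0.0411 over all 14 libraries).

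Between 91 h and 48 h in the IFNγ arm, 3 of 7 members passed, all higher at 91 h, where 14.6% of 12627 genes passed and 5.46% were higher. They were Rxrb (0.55, SE 0.11, limma adjusted p = 0.0345), Rarg (0.50, SE 0.10, limma adjusted p = 0.0363) and Rxra (0.49, SE 0.10, limma adjusted p = 0.0372). All 3 calls were lost without IFNγ library 1 of 91 h (adjusted p = 0.388 to 0.47) or library 2 (0.403 to 0.451), and without a variance trend (0.0649 to 0.0711). Dhrs3 differed by 0.86 (SE 0.30, limma adjusted p = 0.117), Rara by 0.67 (SE 0.16, limma adjusted p = 0.0516) and Cyp26b1 by 1.34 (SE 0.35, limma adjusted p = 0.0624). Those 3 passed in the fit over all 14 libraries (4.2e-04 to 0.00825). That fit averages the wide spread at 48 h with tighter groups, so nothing is read from those passes. Rarb differed by 0.01 (SE 0.21, limma adjusted p = 0.976).

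The rest of the pathway was counted from 4 gene lists that leave out the members. Of 33 genes of retinoid transport and metabolism, 14 were listed in any table. Cyp26a1, Cyp26c1, Aldh1a2 and the retinol transporter gene Stra6 were not listed. Genes called between the arms, in this list and those that follow, are named because they passed, after their values were seen. IFNγ against mock gave 0 higher and 1 lower of 13 tested at 23.5 h, 0 of 14 at 48 h and 0 of 13 at 91 h, with list medians of 0.09, -0.01 and -0.04. Beside these and the counts of the lists that follow, 14.6%, 0% and 16.3% of all genes were called in either direction at these times. The medians of all genes tested were 0.0016, -0.01 and 0.004. The 1 gene called lower was Aldh1a3, which like Aldh1a1 makes retinoic acid from retinal. It stood at 212 and 274 normalised reads in IFNγ at 23.5 h, against 338 and 377 in mock (log2 difference -0.56, SE 0.12, limma adjusted p = 0.00815). The call was lost without IFNγ library 1, at -0.38 (adjusted p = 0.0514), without a variance trend (0.132) and over all 14 libraries (0.37).

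Aldh1a3 also fell with time. It stood at 487 and 487 normalised reads in T0, against 92.6 and 90.9 in IFNγ and 99.4 and 170.0 in mock by the last time. Between 91 h and 48 h in mock it fell by 1.43 on the log2 scale (SE 0.21, limma adjusted p = 2.2e-04). Rdh5, a retinol dehydrogenase best known from the eye, and Adh7, an alcohol dehydrogenase that also oxidises retinol, were higher at 48 h than at 23.5 h in both arms. Rdh5 differed by 1.01 in IFNγ (SE 0.14, limma adjusted p = 0.0492) and by 1.25 in mock (SE 0.14, limma adjusted p = 3.7e-05). Adh7 differed by 1.46 in IFNγ (SE 0.19, limma adjusted p = 0.0477) and by 1.31 in mock (SE 0.20, limma adjusted p = 2.8e-04). The calls of Rdh5 and Adh7 in IFNγ were lost without either IFNγ library of 23.5 h, and in limma without a variance trend (adjusted p = 0.0587 and 0.0568). The list as a whole split evenly between these times in mock, with 4 of 13 higher and 4 lower and a median of -0.04, beside -0.01 over all genes tested and 56.9% of them called. Between 91 h and 48 h in mock, 3 of 13 were higher and 3 lower, where 56.5% of all genes were called.

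Of 19 intracellular carriers, a further receptor and coregulators, 18 were listed. IFNγ against mock gave 1 higher and 2 lower of 17 at 23.5 h, 0 of 17 at 48 h, and 1 higher and 3 lower of 16 at 91 h, with medians of -0.03, -0.06 and -0.05. The gene called higher at 23.5 h was Fabp5, a fatty acid carrier that also delivers retinoic acid to another receptor, PPARδ. Fabp5 stood at 5838 and 5926 normalised reads in IFNγ, against 4464 and 4158 in mock (log2 difference 0.45, SE 0.05, limma adjusted p = 4.6e-05). The corepressor gene Tbl1xr1 (-0.17) was among those called lower at 23.5 h, and at 91 h the coactivator genes Crebbp (-0.22) and Ep300 (-0.16) and the corepressor gene Tbl1x (-0.16) were called lower and Pnrc1 (0.34) higher. Every call named here other than that of Fabp5 was lost with at least 1 library left out, and that of Fabp5 in the fit over all 14 libraries (adjusted p = 0.612). That fit takes in the libraries of IFNγ at 48 h, where Fabp5 stood at 1363 and 3329.

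Carriers also changed with time. Crabp2, which carries retinoic acid to the RARs, stood at 46.4 and 45.9 normalised reads in T0. IFNγ cells held 58.5 and 46.0, then 12.0 and 31.8, then 15.4 and 17.2. Mock cells held 39.8 and 51.0, then 13.7 and 8.81, then 7.65 and 11.2. Between 48 h and 23.5 h in mock it fell by 1.94 on the log2 scale (SE 0.32, limma adjusted p = 5.2e-04), and Fabp5 fell by 1.20 (SE 0.13, limma adjusted p = 3.7e-05). The corresponding differences in IFNγ were -1.36 for Crabp2 (SE 0.50, limma adjusted p = 0.148) and -1.47 for Fabp5 (SE 0.43, limma adjusted p = 0.103). Over the list, 6 of 17 genes were higher and 5 lower in that mock contrast, with a median of 0.11, where 56.9% of all genes were called in either direction.

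Of 13 receptors that pair with RXR other than the RARs, 9 were listed. IFNγ against mock gave 1 higher and 1 lower of 7 at 23.5 h, 0 of 8 at 48 h, and 1 higher and 0 lower of 8 at 91 h, with medians of 0.07, 0.16 and 0.13. Nr1h2, a liver X receptor, was the one called higher at 23.5 h (0.25, SE 0.06, limma adjusted p = 0.0147). Nr4a1, an orphan nuclear receptor, was lower in IFNγ at 23.5 h (-0.24, SE 0.05, limma adjusted p = 0.00939) and higher at 91 h (0.37, SE 0.07, limma adjusted p = 0.00214). The calls at 23.5 h were lost without either IFNγ library (adjusted p = 0.0511 to 0.0751). In mock, 3 of 7 were higher and 2 lower between 48 h and 23.5 h, and 3 of 8 were higher and 3 lower between 91 h and 48 h, where 56.9% and 56.5% of all genes were called in either direction.

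Of 32 genes known as induced by retinoic acid in mouse or human cells, 16 were listed. IFNγ against mock gave 2 higher and 0 lower of 15 at 23.5 h, 0 of 16 at 48 h, and 3 higher and 0 lower of 14 at 91 h, with medians of 0.05, -0.04 and 0.07. The share of all genes called in either direction was 14.6% at 23.5 h and 16.3% at 91 h. At 91 h 8.75% were called higher, and the share called higher at 23.5 h is not given here. At 23.5 h the genes were Sox9, a transcription factor of pigment cells and cartilage (0.75, SE 0.09, limma adjusted p = 1.2e-04), and Znfx1 (0.79, SE 0.05, limma adjusted p = 8.2e-07). Znfx1 is also known as an interferon-induced antiviral gene. At 91 h they were Bhlhe40, a repressor of the circadian clock (0.88, SE 0.12, limma adjusted p = 8.5e-05), Tgm2 (0.33, SE 0.10, limma adjusted p = 0.0268) and Znfx1 again (0.31, SE 0.05, limma adjusted p = 4.5e-04). In limma without a variance trend, every call of a listed gene between the arms at 91 h was lost. The adjusted p was then 0.115 for Bhlhe40, 0.0838 for Tgm2 and 0.0869 for Znfx1. At 23.5 h that setting also lost Nr1h2 (0.16), Nr4a1 (0.0889) and Tbl1xr1 (0.172). Tgm2 was lost without IFNγ library 1 (adjusted p = 0.137), IFNγ library 2 (0.123) or mock library 2 (0.121). In the fit over all 14 libraries, the calls of listed genes between the arms were all lost other than those of Sox9 and Znfx1 at 23.5 h. That fit takes in the wide spread of IFNγ at 48 h, which is in neither contrast. Without those libraries, a fit chosen after the data were seen lost fewer of the named genes. The genes it lost were Aldh1a3 (limma adjusted p = 0.072), Nr4a1 (0.222) and Tbl1xr1 (0.0645) at 23.5 h, and Crebbp (0.0759) and Ep300 (0.168) at 91 h.

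Tgm2, tissue transglutaminase and a classical retinoic acid target, stood highest at the later times. The T0 libraries held 103 and 109 normalised reads. IFNγ libraries held 139 and 139 at first, then 303 and 391, then 375 and 377 by 91 h. Mock libraries held 113 and 106, then 421 and 418, then 308 and 289. All libraries of 48 and 91 h lay above all earlier ones. Between 48 h and 23.5 h it was higher by 1.30 in IFNγ (SE 0.17, limma adjusted p = 0.0492) and by 1.93 in mock (SE 0.11, limma adjusted p = 7.3e-07). The call in IFNγ was lost without either IFNγ library of 23.5 h, and in limma without a variance trend (adjusted p = 0.0618). Between 91 h and 48 h in mock, Tgm2 fell by 0.49 (SE 0.10, limma adjusted p = 0.00207). Sox9 rose between 91 h and 48 h in mock by 1.35 on the log2 scale (SE 0.10, limma adjusted p = 1.5e-06). Crabp2, which is also on this list, went the other way and fell by 1.94 between 48 h and 23.5 h in mock (SE 0.32, limma adjusted p = 5.2e-04). Its libraries of 48 and 91 h lay below both T0 libraries in both arms. Over the list, 7 of 15 genes were higher and 3 lower between 48 h and 23.5 h in mock, with a median of 0.16, beside -0.01 over all genes tested, of which 56.9% were called in either direction.

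**Figure D4:**
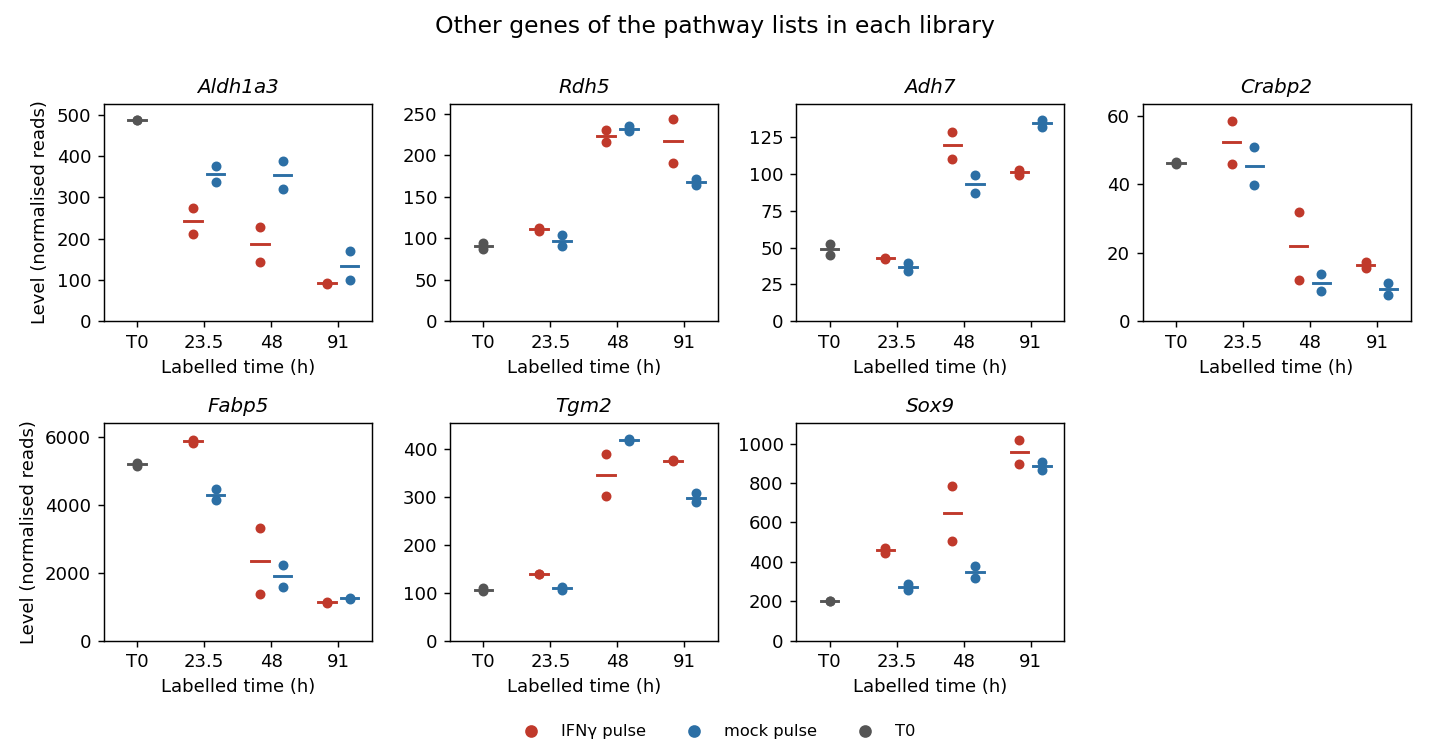
Level (y axis, normalised reads, from 0) of 7 genes of the pathway lists in every library (points) with group means (bars), at T0 and at 23.5, 48 and 91 h, with IFNγ left of mock. Aldh1a3 declines to between 90.9 and 170.0 at 91 h, while Tgm2 stands at 303 or more in every library of 48 h.

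The genes whose course was most like that of Dhrs3, Rarb and Cyp26b1 were ranked by Pearson correlation of log2(level + 1) over the 7 groups, among 3173 genes that reached 100 normalised reads in some group and varied by 1 or more on that scale. The groups share the T0 scale and the course of the culture, so these values only describe likeness. For Dhrs3 they included Scand1 (r = 0.977), Gm26526 (0.975), Adgre5 (0.968) and Fam84b (0.961). For Rarb they were Gm5617 (r = 0.979), Fam84b (0.970), Acad10 (0.966), Adcy9 (0.964) and Pdzk1ip1 (0.959). Fam84b was on both lists, at 505 normalised reads in T0, 1032, 1339 and 1868 in IFNγ at the successive times, and 953, 1329 and 1305 in mock. For Cyp26b1 the first was Bcar3 (r = 0.954), at 179.6 normalised reads in T0, 65.3, 59.3 and 72.2 in IFNγ, and 105, 124 and 89.5 in mock. The next were Scube3 (0.842), Klhdc7a (0.808), Rmrp (0.795) and Arhgef19 (0.793).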

How the data were processed

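PolyA RNA of 7 groups was sequenced, and 6 tables compare T0 with each other group. The submitters' processing notes name the builds mm10 and GRCm38 and the tools STAR 2.5.0a, HTSeq 0.5.3, Picard 1.124 and DESeq, without a version for DESeq. Annotation, filters and strand setting: not given in the sources used here. Per the file headers, the authors deposited a mean signal per gene and group, a log2 ratio, a p-value and an adjusted p-value. The deposited log2 values were not used, since they are T0 over group.

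Of 157036 means, 156474 (99.6%) gave exactly 1 pair of whole reads for 2 libraries within 1.2 times the rounding error, 5 gave none and 557 more than 1. From 3000 normalised reads on, pairs were limited to a log2 ratio of 2 between libraries. T0 reads solved in 2 or more tables were the same in all 13307 genes. In 5 tables, 4 entries name no gene (57.1% to 70.3% of a group's total, 63.9% in T0) and were left out. Every value column was assigned to a group or a comparison, with 0 left over. Tables were normalised separately by the authors, so libraries were put on 1 scale through T0, and every IFNγ to mock comparison rests on that. Library 1 has the larger size factor, and the number pairs nothing. Since separate cultures are not mentioned in the labels, a p-value covers no more than the spread between these libraries, and that spread may be technical.

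limma 3.58.1 (R 4.3.3) with a variance trend was fitted to log2(normalised reads + 1), two-sided, over genes reaching 20 normalised reads in a compared group, with Benjamini-Hochberg adjustment over all of them. A call is an adjusted p under 0.05. The pseudocount of 1 understates changes of low genes. Exon lengths, overlaps and coordinates came from GENCODE on GRCm38, and promoters from RefSeq (GRCm38.p6). Other software was Python 3.11.15, numpy 2.4.6, pandas 2.3.3, scipy 1.17.1 and matplotlib 3.10.9.

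The members, lists and tests were chosen with earlier results of these data known. All 8 members are named. Listed genes are named between times where they passed with a 2-fold difference of means, up to 6 per list and comparison. Those called between the arms all differed by less and are named outside that rule, after their values were seen. The 5 most alike genes are named for Dhrs3, Rarb and Cyp26b1, except that some items are not reported here. Alternatives were other pseudocounts, filters and scaling, no variance trend, 1 fit over all libraries and leaving out each library. The fit over all 14 libraries takes 1 spread per gene from all groups, so that of IFNγ at 48 h is averaged with tighter ones.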

Additional observations from a re-analysis of the deposited data

Results flagged for a closer look

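The direction of the difference between the arms changed between times, with every IFNγ library on one side of every mock library at one time and on the other side at another, for 3 members. Dhrs3 had a log2 difference of IFNγ minus mock of -0.62 at 23.5 h and of 0.45 at 91 h. The difference between these times was not tested, because the mock libraries of 23.5 h were used to choose the gene. Its change of direction is therefore a description only. Rarg had -0.26 at 48 h and 0.15 at 91 h, with an interaction of 0.41 (SE 0.10, limma adjusted p = 0.474). Rxra had -0.09 at 23.5 h, -0.12 at 48 h and 0.10 at 91 h, none of which passed alone. Its interaction between 91 and 48 h was 0.22 (limma adjusted p = 0.823), and its difference between 91 and 23.5 h was not tested. The libraries of the arms were apart in 56.9%, 39.1% and 57.7% of genes at 23.5, 48 and 91 h. The share of all genes whose arms change sides in this way is not given here, so nothing is read from the count of 3 members.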

How the results depend on the processing

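No paired analysis was possible because the labels give 1 sample per group and the recovered libraries carry no number that links them across groups. Another pseudocount, filter or scaling left each count of called members within 1.5 times. At 91 h, IFNγ against mock gave 4 called members, and 0 without a variance trend, 0 in 1 fit over all 14 libraries, 3 in a fit over all libraries but those of IFNγ at 48 h (chosen after seeing the data), and 1 to 2 with a library left out. At 48 h it gave 0, with 2 in the fit over all 14 libraries and 0 to 3 with a library left out. IFNγ at 48 h against 23.5 h gave 0, with 6 over all 14 libraries and 0 to 6 with a library left out. IFNγ at 91 h against 48 h gave 3, with 1 without a variance trend, 6 over all 14 libraries and 0 to 6 with a library left out. The interaction gave 0, with 1 over all 14 libraries and 0 to 3 with a library left out. Against T0 at 91 h, a 1.5-fold rule took 5 members in IFNγ and 5 in mock, in place of 3. The shares of all genes under these altered settings are not given here, so nothing is read from the recounts.

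With a library left out, the sign turned for small differences. In IFNγ against mock these were Rara at 23.5 h (-0.03 to 0.02) and 48 h (-0.06 to 0.28), Dhrs3 at 48 h (-0.35 to 0.55), Rxrb at 48 h (-0.12 to 0.01) and 91 h (-0.05 to 0.05), and Cyp26b1 at 91 h (-0.40 to 0.08). Between times they were Rarb in mock at 91 h against 48 h (-0.11 to 0.02), Rarb in IFNγ at 91 h against 48 h (-0.24 to 0.26) and Rara in IFNγ at 48 h against 23.5 h (-0.09 to 0.25). In the interaction they were Dhrs3 (-0.10 to 0.80), Rarb (-0.19 to 0.31), Rara (-0.01 to 0.33) and Rxrb (-0.01 to 0.12). With equal totals, Rara in mock at 48 h against 23.5 h was 0.04 and Rarb in IFNγ at 91 h against 48 h was -0.02. The cause of these changes was not tested. Depth limits Aldh1a1 and, in IFNγ at 48 h, Cyp26b1, and 2 libraries per group limit every test.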
